A study of Homo sapiens with 8 samples.

Results

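The 10 genes described here carry out and control polyamine metabolism. They were taken by symbol: ODC1, AMD1, SRM and SMS for synthesis, OAZ1 and OAZ2 for the antizymes, AZIN1 for the antizyme inhibitor, SAT1 and SMOX for catabolism, and DHPS for the transfer of a part of spermidine to eIF5A. They are 10 of the 12235 genes listed in at least 1 of 8 ribosome profiling libraries from HEK293T cells, a human embryonic kidney line that carries SV40 large T antigen. Wild-type cells were kept overnight in control medium (Suff), which was prepared from a base without these amino acids, supplemented back to normal levels and given dialyzed serum, or in this medium without arginine (Arg-), without leucine (Leu-) or without methionine (Met-). Each medium was profiled once after cycloheximide pretreatment, which arrests elongating ribosomes, and once without it, so there was 1 library per condition and no replicate error. All 6 genes fixed as HEK293T markers were listed in some library, although PAX2 had 6 and 11 reads in its only libraries, and none of the 4 markers of other cell types was listed.

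Polyamines are small cations that bind nucleic acids and are needed for growth. ODC1 makes putrescine from ornithine, and AMD1 decarboxylates S-adenosylmethionine, which is made from methionine, to provide the aminopropyl groups that SRM and SMS add to form spermidine and spermine. When polyamines are plentiful, ribosomes shift frame on antizyme mRNAs and full-length antizyme is made, which binds ODC1 and delivers it to the proteasome. AZIN1 resembles ODC1 but has no decarboxylase activity, and it binds antizyme in place of ODC1. SAT1 acetylates spermidine and spermine, and SMOX oxidises spermine.

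The shift is written into the annotated coding sequence of both antizymes as a gap of 1 base. Of 11705 listed genes with a coding sequence in GENCODE release 44, 4 had such a gap (0.0342%): OAZ1, OAZ2, OAZ3 and SLC37A4. Both sites lie in coding sequence apart from the skipped base, which the transcript models leave out. The OAZ1 site is at chr19:2271429-2271457 on the plus strand of GRCh38, in the gene model at chr19:2269520-2273490. The OAZ2 site is at chr15:64691501-64691529 on the minus strand, in the model at chr15:64687573-64703281. They are shown because ribosomes must change frame here for the second part of each antizyme to be made. Capitals mark the last codon of the first frame (TCC), the stop codon of that frame (TGA), whose first base is skipped, and the base after it.

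OAZ1: ctcggtggtgcTCCTGATgcccctcaccc

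OAZ2: ctctgtggtgcTCCTGATgcccctcaccc

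Of the 29 bases, 28 were identical, and the substitution was G4T, with the OAZ1 base first and the position counted from the 5′ end. The first frame of OAZ1 held 68 of 228 codons (29.8%), and that of OAZ2 held 32 of 189 codons (16.9%). The deposited density counted both frames together. For OAZ1, RPKM gave whole reads in 4 of 4 libraries with the shifted coding sequence, and in 0 of 4 with the skipped base counted or with the first frame alone. For OAZ2 the shifted sequence gave whole reads in 7 of 7 libraries and the others in 0 of 7. The values of the antizymes below therefore give neither the share of ribosomes that shifted nor how many stopped at the first frame. Mapping to transcripts allowed no mismatch. If the authors' transcripts also left out the skipped base, footprints across it could not align and are missing from these values.

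**Figure D1:**
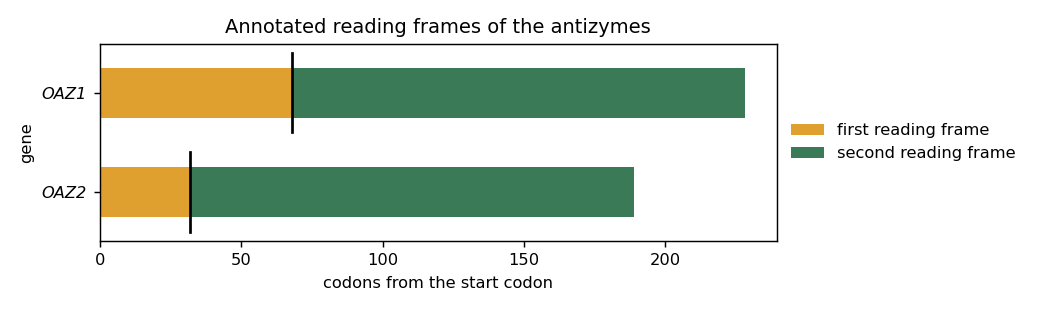
Annotated reading frames of OAZ1 and OAZ2, with codons from the start codon on the x axis and the black line at the skipped base. The first frame is 68 of 228 codons in OAZ1 and 32 of 189 in OAZ2, and RPKM covers both frames.

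RPKM is a read density that takes account of how long a coding sequence is and how many coding-sequence reads the library holds, so levels of different genes can be set side by side within a library. It is a share of the library, and more mRNA and more ribosomes per mRNA cannot be told apart in it. Whole reads were recovered from the steps between values. The libraries held between 538222 (Met-) and 6434043 (Leu-) reads with cycloheximide, and between 1302523 and 3139745 without it. The lowest count listed was 64 reads in the first series and 5 in the second, which changes which genes appear. With cycloheximide, 7 of the 10 genes were listed in Suff, 9 in Arg-, 9 in Leu- and 1 in Met-. Without it, 9 were listed in each library. OAZ1 was listed in no library with cycloheximide and DHPS in none without it, and only SRM was listed in all 8. A gene that was not listed but has a value in the same series is given below as under the RPKM that 64 reads would have had there. Intervals are 95% intervals from the recovered reads and cover counting error only.

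Among the synthesis genes, ODC1 and AMD1 differed between the starvations without cycloheximide. The ODC1 level was 221 RPKM in Suff (961 reads), 97.7 in Arg-, 147 in Leu- and 225 in Met- (407 reads). Its density was lowest in Arg-, intermediate in Leu- and nearly equal in Suff and Met-, whose order could not be told apart by counting error. Against Suff, the ratio was 0.442 (interval 0.380 to 0.513) in Arg-, 0.668 (0.585 to 0.760) in Leu- and 1.02 (0.907 to 1.15) in Met-. With cycloheximide the ODC1 level was 193 RPKM in Suff, 145 in Arg- and 177 in Leu-, and the Met- library did not list it, which places it under 86.0 RPKM if it had fewer than 64 reads. The Arg- library was again the lowest of those that listed ODC1, at 0.755 (0.685 to 0.834) of Suff.

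AMD1, which spends S-adenosylmethionine, was highest in the library without methionine. Without cycloheximide its level was 109.7 RPKM in Suff (346 reads), 93.3 in Arg-, 68.5 in Leu- and 379.7 in Met- (497 reads). Met- lay far above the other 3 libraries, Suff and Arg- were not separated by counting error, and Leu- was lowest. The ratio to Suff was 3.46 (3.01 to 3.98) in Met-, 0.851 (0.698 to 1.03) in Arg- and 0.624 (0.496 to 0.780) in Leu-. Of 7897 genes with a mean of at least 10 RPKM, 277 had a higher log2 ratio in Met- than AMD1. With cycloheximide, AMD1 stood at 78.0 RPKM in Suff, 72.9 in Arg- and 47.8 in Leu-, so Leu- was again lowest. The Met- library of that series did not list AMD1, and the level that 64 reads would have had there, 119 RPKM, is above all 3 of these, so the difference seen without cycloheximide could not be checked in it. In AMD1, 29.9% of the windows of 28 bases in the coding sequence also occur in transcripts of other genes, mostly its pseudogenes. The same filter for unique hits was applied in each library of a series.

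SRM, spermidine synthase, had the highest RPKM of the synthesis genes in Suff and was lower in every starved library of both series. Unique hits alone were kept, and 73.6% of the SMS windows of 28 bases are shared with other genes, beside 0.341% in SRM. Whether SRM was also more densely occupied than SMS is therefore uncertain. With cycloheximide the SRM level was 1136 RPKM in Suff, 371 in Arg-, 426 in Leu- and 439 in Met- (214 reads). Without it the level was 420.5 in Suff, 239 in Arg-, 240.3 in Leu- and 256 in Met-. Suff stood apart in both series, and the order below it was Met-, Leu- and Arg- in both, although Met- and Leu- were not separated by counting error in either series, nor Leu- and Arg- without cycloheximide. The ratio to Suff was 0.327, 0.375 and 0.386 in Arg-, Leu- and Met- with cycloheximide, and 0.569, 0.572 and 0.609 without it, so the differences were at least 2-fold with the drug and under 2-fold without it. Whether the drug or the other differences in processing account for this was not tested.

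SMS, spermine synthase, did not follow SRM. Without cycloheximide the SMS level was 159 RPKM in Suff, 84.0 in Arg-, 135 in Leu- and 53.7 in Met- (77 reads), so the order was Suff, Leu-, Arg- and Met-, with each step separated by counting error. The ratio in Met- was 0.337 (0.262 to 0.429), and 117 of 7897 genes had a lower log2 ratio. With cycloheximide SMS was nearly level, with 125 RPKM in Suff, 105 in Arg- and 134 in Leu-. The Met- library, which did not list SMS, is placed under 108 RPKM by the same limit of 64 reads, below the 125 of Suff. No counting error was applied to this limit, so a level close under it may not be separated from Suff. Much of the SMS coding sequence is shared with other transcripts (73.6% of windows of 28 bases), so its absolute level is uncertain.

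**Figure D2:**
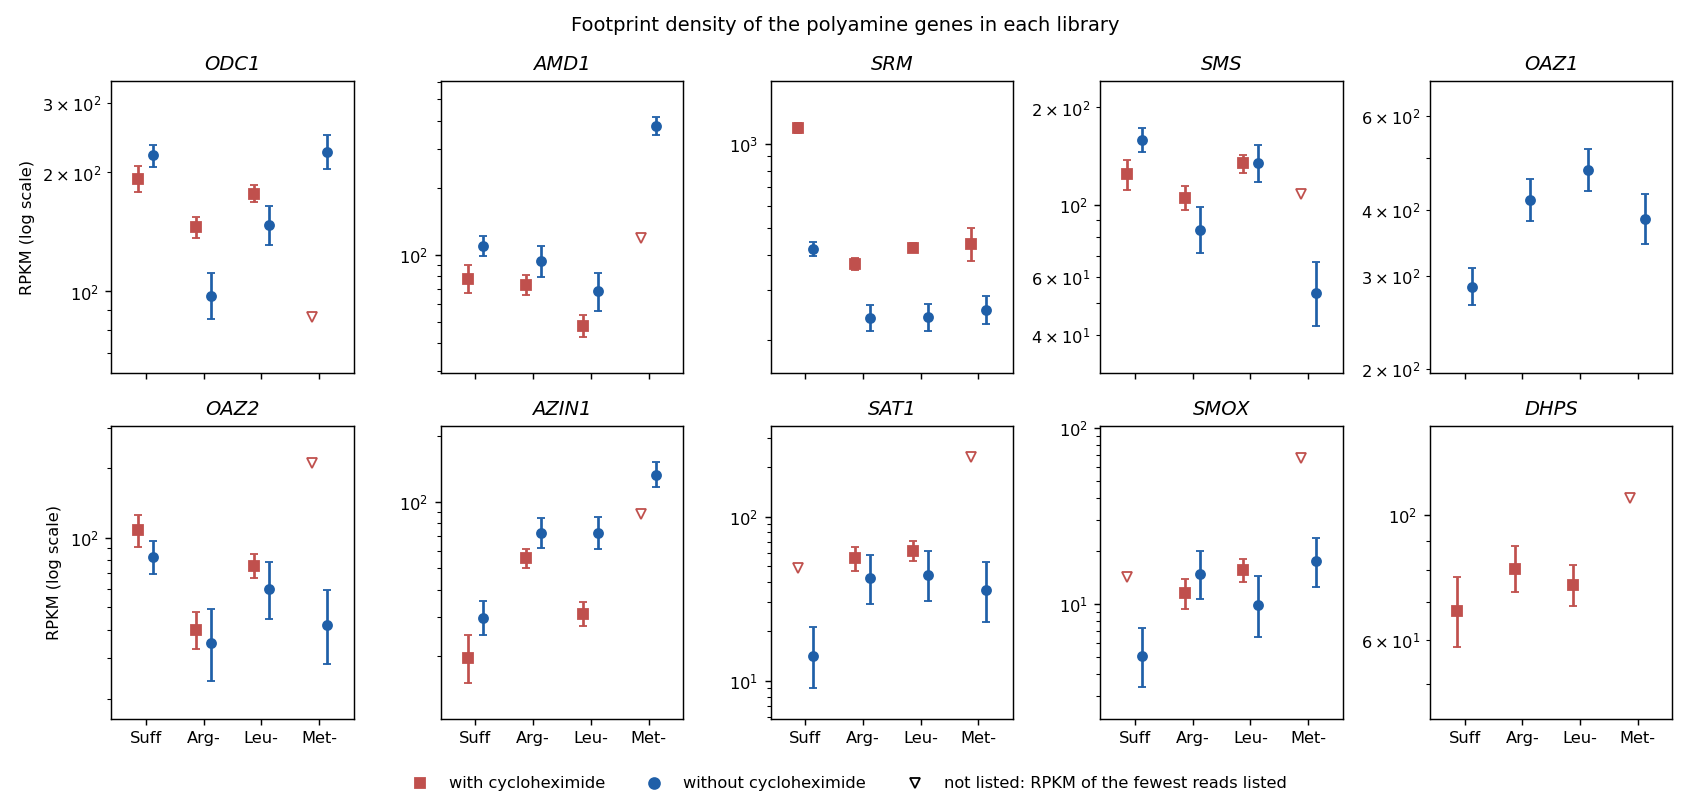
RPKM (log scale, a separate range for each gene) of the 10 genes in each library, with squares for the series with cycloheximide, circles for the series without it, and bars for 95% counting intervals. Open triangles mark libraries that did not list a gene with a value in the same series, at the RPKM that the fewest reads listed would have had. OAZ1 with cycloheximide and DHPS without it have no mark. AMD1 (379.7 RPKM) and AZIN1 (133) were highest in Met- without cycloheximide, and SRM was highest in Suff in both series.

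The antizymes diverged. OAZ1, the major antizyme, was listed without cycloheximide alone, with a level of 287 RPKM in Suff (618 reads), 418 in Arg-, 476 in Leu- and 384 in Met-. All 3 starved libraries lay above Suff, with ratios of 1.46 (1.29 to 1.65), 1.66 (1.47 to 1.87) and 1.34 (1.17 to 1.53). For Met- this is a log2 ratio of 0.42, close to the median of all genes (0.31), against which OAZ1 was higher by 0.11. OAZ2 was listed at lower levels and in the other direction. Without cycloheximide it had 82.1 RPKM in Suff, 34.9 in Arg- (32 reads), 59.8 in Leu- and 41.8 in Met- (31 reads), where Suff was highest. Its ratio to Suff was 0.508 (0.333 to 0.753) in Met- and 0.728 (0.518 to 1.01) in Leu-, and the 3 starved libraries, in the order Leu-, Met- and Arg-, were not separated from their neighbours. With cycloheximide it had 107 RPKM in Suff, 39.8 in Arg- and 75.4 in Leu-, and all 3 were separated. In Arg- its ratio was 0.370 (0.288 to 0.475) with the drug and 0.424 (0.280 to 0.625) without it. Within a library, the OAZ1 level was 3.49 times that of OAZ2 in Suff (2.91 to 4.20), 11.98 times in Arg- (8.37 to 17.7), 7.96 times in Leu- (5.95 to 10.8) and 9.21 times in Met- (6.37 to 13.8). The size of these ratios is uncertain, since 19.2% of the OAZ1 windows of 28 bases are shared with other genes, beside 0% in OAZ2.

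The density of AZIN1, the antizyme inhibitor, was higher than in Suff in each starved library that listed it. Without cycloheximide the AZIN1 level was 29.8 RPKM in Suff (126 reads), 72.4 in Arg-, 72.4 in Leu- and 133 in Met- (234 reads). Arg- and Leu- were equal within counting error, and Met- was above both. The ratio to Suff was 2.43 (1.91 to 3.10) in Arg-, 2.43 (1.90 to 3.11) in Leu- and 4.48 (3.59 to 5.60) in Met-. In Met-, 118 of 7897 genes had a higher log2 ratio. With cycloheximide the level was 19.5 RPKM in Suff (67 reads), 55.5 in Arg- and 31.0 in Leu-, with Arg- highest and Suff lowest. The ratios were 2.85 (2.19 to 3.76) and 1.59 (1.21 to 2.11). The Suff value stands just over the 64 reads below which that series lists nothing. Met- did not list AZIN1, and its limit of 88.5 RPKM is above the other levels, so it gives no direction.

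The ratios between ODC1 and its regulators within a library do not depend on how libraries are scaled to each other. Removal of duplicates, to which the records of the series without cycloheximide point, could still affect them, and this was not tested. Without cycloheximide, the OAZ1 level was 1.297 times that of ODC1 in Suff (1.17 to 1.44), 4.28 times in Arg- (3.63 to 5.05), 3.22 times in Leu- (2.79 to 3.73) and 1.71 times in Met- (1.47 to 1.97). OAZ1 was thus more densely occupied than ODC1 in all 4 libraries, and by most in Arg-. Of the windows of 28 bases, 19.2% are shared with other genes in OAZ1, 0.66% in ODC1 and 0% in AZIN1. Unique hits may therefore understate OAZ1 beside ODC1 and AZIN1, which leaves the size of these ratios uncertain. The OAZ2 level was below that of ODC1 throughout, at 0.372 times in Suff, 0.357 in Arg-, 0.405 in Leu- and 0.185 in Met- (0.124 to 0.267). The OAZ1 level was 9.62 times that of AZIN1 in Suff (7.93 to 11.7), 5.77 times in Arg-, 6.57 times in Leu- and 2.88 times in Met- (2.43 to 3.42). The inhibitor stood closest to antizyme in Met-. The AZIN1 level over that of ODC1 went from 0.135 in Suff to 0.741 in Arg-, 0.491 in Leu- and 0.592 in Met-. With cycloheximide this last ratio was 0.101 in Suff, 0.382 in Arg- and 0.175 in Leu-, again lowest in Suff and highest in Arg-.

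The same reading within libraries separated the decarboxylases and the synthases. Without cycloheximide, the AMD1 level was 0.497 times that of ODC1 in Suff (0.438 to 0.562), 0.955 times in Arg- (0.771 to 1.18), 0.464 times in Leu- (0.368 to 0.582) and 1.68 times in Met- (1.47 to 1.92). The AMD1 level was above that of ODC1 in Met- alone, although the interval in Arg- included 1. Of the windows of 28 bases, 29.95% are shared with other genes in AMD1 and 0.66% in ODC1. Unique hits may therefore understate AMD1 beside ODC1. The SRM level was 2.64 times that of SMS in Suff, 2.85 in Arg-, 1.78 in Leu- and 4.77 in Met- (3.70 to 6.203). With cycloheximide the highest ratio of SRM to SMS was instead in Suff, at 9.12 (8.16 to 10.2), against 3.52 in Arg- and 3.17 in Leu-. The shared sequence of SMS leaves the size of all these ratios of SRM to SMS uncertain.

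**Figure D3:**
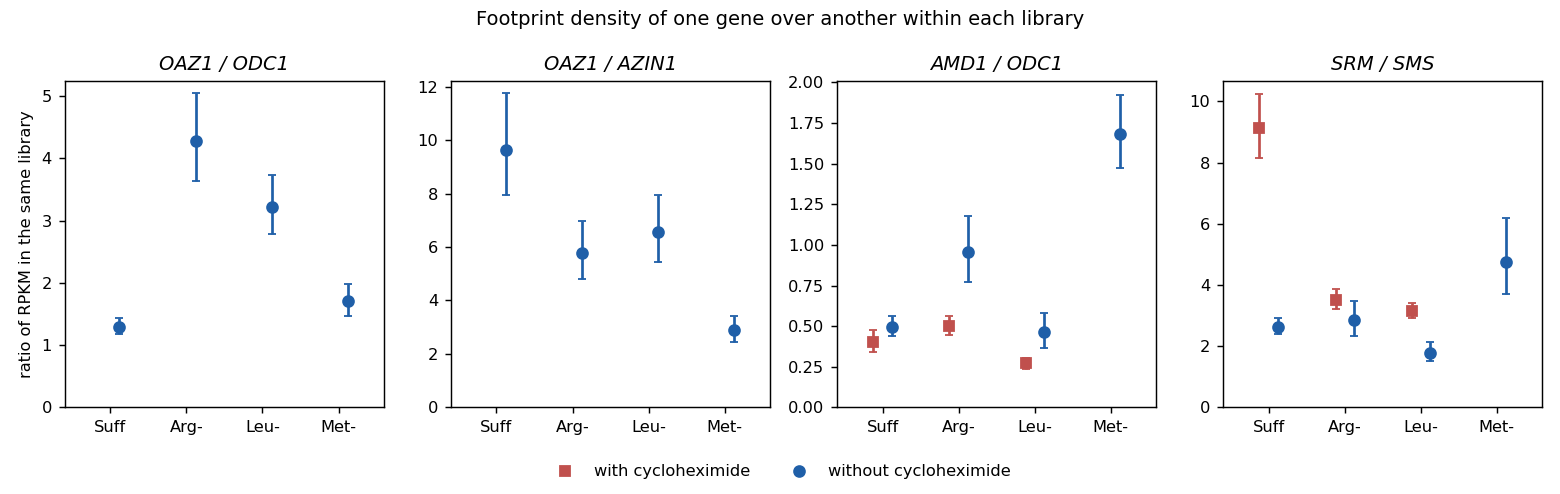
Ratio of the RPKM of one gene to that of another in the same library, with 95% counting intervals, squares with cycloheximide and circles without it. OAZ1 over ODC1 was 4.28 in Arg- and 1.297 in Suff, and AMD1 over ODC1 exceeded 1 in Met-, at 1.68.

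The catabolic genes were sparsely occupied, and both were denser in the starved libraries without cycloheximide. Without the drug the SAT1 level was 14.2 RPKM in Suff, 42.1 in Arg-, 44.02 in Leu- and 35.7 in Met-, from 23, 35, 34 and 24 reads. The 3 starved libraries were not separated from each other, and each was above Suff, at 2.97 times (1.70 to 5.26), 3.10 times (1.77 to 5.51) and 2.52 times (1.36 to 4.66). With cycloheximide Suff did not list SAT1 and so had under 48.7 RPKM by the limit of 64 reads, below the 55.6 of Arg- and the 62.1 of Leu-. No counting error was applied to this limit, and the interval of Arg- (46.9 to 65.5) includes it. SMOX had 5.07 RPKM in Suff, 14.8 in Arg-, 9.88 in Leu- and 17.5 in Met- without cycloheximide, from 28, 42, 26 and 40 reads. Suff was lowest, and the intervals of neighbouring starved libraries overlapped. The ratio to Suff was 2.92 (1.77 to 4.90), 1.95 (1.10 to 3.45) and 3.44 (2.07 to 5.80). With cycloheximide SMOX had 11.5 RPKM in Arg- and 15.6 in Leu-, and the limit of 14.2 in Suff lies between them.

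DHPS, which transfers part of spermidine to eIF5A, differed little. With cycloheximide it had 67.4 RPKM in Suff, 80.2 in Arg- and 74.97 in Leu-, so from the highest level to the lowest the order was Arg-, Leu-, Suff. The ratio to Suff was 1.19 (1.003 to 1.42) in Arg-, just outside counting error, and 1.11 (0.941 to 1.32) in Leu-, and Arg- and Leu- were not separated. Its coding sequence shares 93.9% of its windows of 28 bases with an overlapping gene model (ENSG00000285589), so its level is uncertain.

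Each starvation was then set against Suff as log2((RPKM + 1)/(RPKM Suff + 1)), which understates changes of low genes, and genes at least 2-fold higher or lower were counted beside the same count over all genes with a mean of at least 10 RPKM. In Arg- without cycloheximide 3 of 9 members were at least 2-fold higher (AZIN1, SAT1 and SMOX) and 2 lower (ODC1 and OAZ2), where 8.33% of all genes were higher and 6.05% lower. In Leu- 2 of 9 were higher (AZIN1 and SAT1) and 0 lower, where 6.89% of all genes were higher and 2.12% lower. In Met- 4 of 9 were higher (AMD1, AZIN1, SAT1 and SMOX) and 1 lower (SMS), where 20.2% of all genes were higher and 5.47% lower. The whole Met- library was shifted, with a median log2 ratio of 0.31 over all genes. Centred on it, 3 members were higher and 3 lower, since SAT1 moved to 0.96 and SRM and OAZ2 passed to -1.03 and -1.27, and ODC1 changed from 0.03 to -0.28, where 10.75% of all genes were higher and 10.76% lower after centring. SMOX counts here although its mean was under 10 RPKM in Arg- and Leu-. The median over the members with a mean of at least 10 RPKM was -0.52 in Arg-, -0.35 in Leu- and 0.42 in Met-, beside -0.02, 0.14 and 0.31 over all genes.

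**Figure D4:**
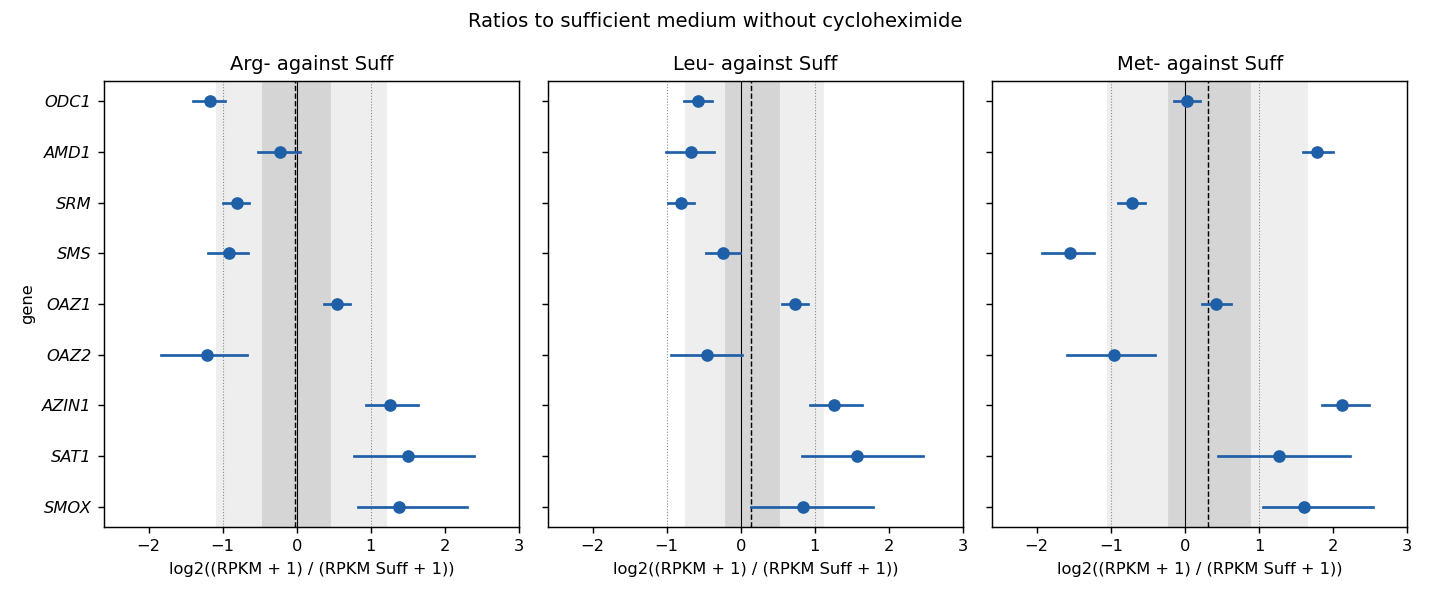
Log2 ratio of each starved library to Suff without cycloheximide for the 9 listed genes, with 95% counting intervals. The dark and light bands hold the middle 50% and 90% of all genes, the dashed line is their median and dotted lines mark 2-fold. SMS (-1.55) in Met-, ODC1 (-1.17) and OAZ2 (-1.21) in Arg- and SRM (-0.80) in Leu- lie below the bands, and AZIN1 in all 3 starvations, SAT1 in Arg- and Leu-, SMOX in Arg- and AMD1 in Met- lie above them.

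With cycloheximide the counts depend on how genes that are not listed are treated. Counting them as 0, 3 of 9 members were at least 2-fold higher in Arg- (AZIN1, SAT1 and SMOX) and 2 lower (SRM and OAZ2), beside 29.7% and 18.4% of all genes with a mean of at least 10 RPKM, which SMOX did not reach in Arg- or Leu-, nor AZIN1 in Met-. Of the 7 listed in both libraries, 1 was higher and 2 lower, beside 16.6% and 19.7%. In Leu- 2 of 9 were higher (SAT1 and SMOX) and 1 lower (SRM), beside 26.3% and 6.32%, and of the 7 listed in both 0 were higher and 1 lower, beside 12.1% and 7.28%. In Met- 0 of 7 were higher and 7 lower, beside 21.0% and 61.9%, but 6 of these were simply not listed in a library of 538222 reads. The limit of 64 reads, taken without counting error, places ODC1 and SMS alone of the 6 below their Suff level. For SMS the limit of 108 RPKM is close to the 125 of Suff, so it may not be separated. SRM was the single member listed in both, with 46.7% of all such genes higher and 9.79% lower. Among genes listed in both libraries of that comparison the median log2 ratio was 0.89, and SRM stood at -1.37. The median of the members was -0.17 in Arg-, -0.01 in Leu- and -6.53 in Met-, the last set by genes not listed, beside -0.01, 0.21 and -4.84 over all genes.

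The series were then compared over genes listed in all 4 libraries concerned. In Arg- 6 members had a ratio in both series, and all 6 had the same sign in both, beside 71.1% of 4765 genes. This was 5 of 6 when libraries were scaled to the upper quartile, since AMD1 with cycloheximide went from -0.10 to 0.13. AZIN1 was at least 2-fold higher in both, as were 2.6% of those genes, and OAZ2 at least 2-fold lower in both, as were 3.84%. In Leu- 5 of 6 members had the same sign, beside 71.2% of 4871 genes, and 6 of 6 when ratios were centred on the median of all genes, since SMS with cycloheximide went from 0.11 to -0.095. None was 2-fold in both series, where 2.09% of genes were higher and 1.31% lower. In Met- SRM was the single member with both ratios, and was lower in both unless centred on a median that genes not listed had set. Within each series the starved libraries share the same Suff library, so that the 3 ratios of a gene are not independent.

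**Figure D5:**
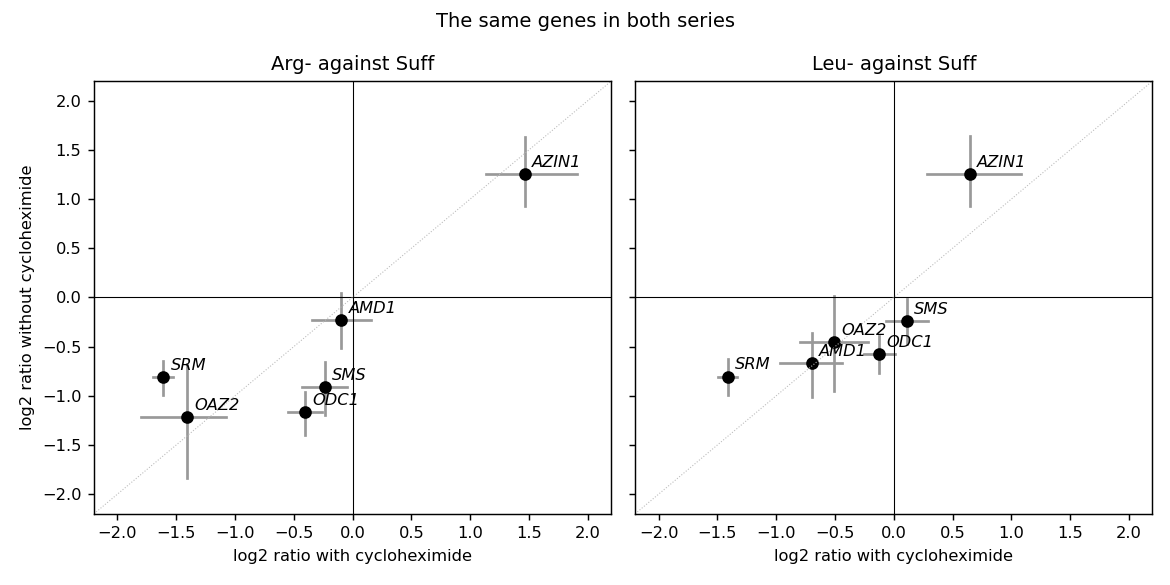
Log2 ratio to Suff with cycloheximide (x axis) and without it (y axis) for the 6 genes listed in all libraries concerned, with 95% counting intervals and the line of equal ratios dotted. AZIN1 lies in the upper right in Arg- (1.47 and 1.25) and Leu- (0.64 and 1.25), SRM in the lower left, and ODC1 has its lower ratio without the drug in both.

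Met- and Leu- were compared directly without cycloheximide, a comparison that does not use the Suff library and that was added after the data were seen. AMD1 was 5.55 times higher in Met- (4.48 to 6.92), and 23 of 8133 genes had a higher log2 ratio. SMS was at 0.399 (0.303 to 0.519) of its Leu- level. These were the only members past 2-fold, 1 of 9 higher and 1 of 9 lower, where 10.2% of all genes were higher and 5.07% lower. AZIN1 was 1.84 times higher (1.49 to 2.28), ODC1 1.53 times (1.31 to 1.78), and SRM did not differ by more than counting error (1.06, 0.908 to 1.25).

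Of 20 further genes of the pathway (substrate supply, transport, salvage, hypusination and minor paralogs), 18 were listed in some library. Without cycloheximide 2 were at least 2-fold higher and 2 lower of 17 in Arg-, 2 and 1 of 17 in Leu-, and 5 and 2 of 18 in Met-, beside 8.33% and 6.05%, 6.89% and 2.12%, and 20.2% and 5.47% of all genes. With it, the counts were 3 and 1 of 11, 4 and 0 of 12, and 6 and 4 of 11, beside 29.7% and 18.4%, 26.3% and 6.32%, and 21.0% and 61.9%, including genes not listed in 1 of the libraries. The counts of both series include genes with a mean under 10 RPKM, which the shares leave out. Over genes listed in both libraries, the counts without cycloheximide were 2 and 0 of 16 in Leu- and 4 and 1 of 16 in Met-. The shares of all such genes were 6.85% and 2.06% in Leu-, and 20.2% and 5.34% in Met-. With cycloheximide these counts were 2 and 1 of 10 in Arg-, 2 and 0 of 10 in Leu- and 5 and 0 of 6 in Met-. The shares beside them were 16.6% and 19.7%, 12.1% and 7.28%, and 46.7% and 9.79%. The 4 lower genes in Met- with cycloheximide were not listed there. Their limits of 64 reads lay above their Suff levels, so they give no direction. MAT2A, which makes the S-adenosylmethionine that AMD1 uses, had a level of 249 RPKM in Suff, 85.7 in Arg-, 125 in Leu- and 1019 in Met- without cycloheximide, and 63.3, 84.6, 83.7 and 728 with it. Met- was highest in both series, as it was for AMD1 in the series that listed it there. Like AMD1, MAT2A was lower in Leu- than in Suff without the drug (log2 ratio -0.99), but with it MAT2A was slightly higher (0.40) where AMD1 was lower (-0.69).

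The transport genes in the list that passed 2-fold in both series of all 3 starvations were SLC3A2, the heavy chain of several amino acid exchangers, and SLC7A1, a carrier of arginine and ornithine. Without cycloheximide the log2 ratio of SLC3A2 was 2.14 in Arg-, 1.94 in Leu- and 2.17 in Met-, and with it 3.08, 2.21 and 4.62. For SLC7A1 the values were 2.05, 1.82 and 2.27, and 2.99, 1.83 and 3.41. EIF5A, the protein that receives the spermidine part, had log2 ratios of -0.94, -0.54 and -1.08 without cycloheximide and of -0.51, 0.14 and -0.59 with it, so it was lower in 5 of the 6 comparisons. Its paralog EIF5A2 was listed without cycloheximide alone, with between 7 and 30 reads. DOHH, the second enzyme of hypusination, had log2 ratios of -1.18 in Arg-, -0.06 in Leu- and 2.39 in Met- with cycloheximide, and of 0.0001, -0.22 and 0.56 without it.

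SRM alone could be followed over all 6 comparisons. Among 1758 other genes listed in all 8 libraries, the closest pattern of 6 log2 ratios was that of AUP1 (root mean square difference 0.195), followed by a transcript without a gene name here, ENST00000464167 (0.2004), and by RPL38 (0.225), a protein of the large ribosomal subunit.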

How the data were processed

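Per the labels and methods, the authors trimmed adaptors (cutadapt in the submitters' processing notes), kept footprints within a length range, trimmed ends with Trimmomatic, mapped them with Bowtie, allowing no mismatch, to human transcripts (GRCh38), retained unique hits and deposited RPKM per Ensembl transcript. The annotation release is not given in the sources used here. The records of the series without cycloheximide point to removal of duplicates, which the methods do not state.

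Transcripts were matched to GENCODE release 44 (96.7% to 97.1% per library), and the highest transcript of each gene was used. Each member had a single transcript. Reads were recovered from the RPKM steps: 97.2% to 97.4% of matched values, and 62 of 62 member values, lay within 0.01 of a whole read. Coding length was taken without the stop codon with cycloheximide and with it otherwise. Ratios used a pseudocount of 1, and genes not listed counted as 0. Exact Poisson intervals (95%) cover counting error only. With 1 library per condition no test was made. The named genes were all members, pathway genes past 2-fold alike in both series of a starvation, the eIF5A genes and MAT2A (DOHH was named after its values were seen), and the 3 genes closest in pattern to a member listed in all 8 libraries. Members and lists were chosen with earlier results of these data known. Scripts were tested on simulated data. The software was scipy 1.17.1, pandas 2.3.3, numpy 2.4.6 and matplotlib 3.10.9 under Python 3.11.15.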

Additional observations from a re-analysis of the deposited data

How the results depend on the processing

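Each comparison was repeated under 8 alternatives: a pseudocount of 0.1, a minimum mean of 50 RPKM, no filter, genes listed in both libraries, summed transcripts, 1 transcript per gene, ratios centred on the median of all genes, and libraries scaled to the upper quartile. Of 461 values of single genes, 453 kept the call and 8 did not, all 8 in Met- against Suff under centring or upper-quartile scaling. Most of this agreement was fixed in advance. Only the pseudocount, centring and upper-quartile scaling could alter the value of a member. The other alternatives left it as it was or dropped the member, and dropped members are not among the 461. Centring on the median of the Met- library with cycloheximide, which is set by genes not listed, turned SRM from -1.37 to 3.47 and AZIN1 from -4.36 to 0.48, and moved the median of the members from -6.53 to -1.69. Without cycloheximide, upper-quartile scaling put SRM at -1.02, OAZ2 at -1.26 and SAT1 at 0.98, and the median in Met- became 0.11 when centred and -0.077 when scaled. The minimum of 50 RPKM lowered the counts of members past 2-fold with cycloheximide to 2 in Arg-, 1 in Leu- and 4 in Met-, and without it to 3, 1 and 3, since fewer members remained. The shares of all genes under this filter were 40.6%, 22.6% and 70.8% with cycloheximide, and 13.9%, 7.37% and 19.7% without it. Under it the medians were -0.31 in Leu- and -6.87 in Met- with cycloheximide, and -0.81 in Arg- and 0.0297 in Met- without it. With genes listed in both libraries alone, the counts with cycloheximide were 3, 1 and 1, beside 36.4%, 19.4% and 56.5% of all such genes, and the Met- median was SRM itself, -1.37. The remaining medians that moved were 0.0602 in Arg- with cycloheximide (upper quartile), -0.21 in Leu- (centred), -9.84 in Met- (pseudocount), -6.30 in Met- (no filter) and -0.23 in Arg- without cycloheximide (no filter).

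The share of higher genes among all genes past 2-fold went from 78.7% to 49.97% in Met- without cycloheximide when centred, from 76.5% to 56.4% in Leu-, and from 25.3% to 56.7% in Met- with cycloheximide. It went from 80.6% to 68.8% in Leu- with cycloheximide when centred and from 61.8% to 74.6% in Arg- when scaled to the upper quartile. Leaving out the filter moved the share of all genes past 2-fold in Leu- to 50.3% (cycloheximide, 32.6% with the filter) and 15.1% (no cycloheximide, 9.0% with the filter). Of 461 values, 9 changed sign, all under centring or upper-quartile scaling. No paired analysis was possible because the libraries of a comparison share 1 replicate number alone, with 1 library per condition in each series. A fit over both series, which would treat them as repeats of a medium although they were processed differently, was not run. Depth limits SAT1, SMOX and OAZ2, which rest on 23 to 51 reads in several libraries, and all members but SRM in the Met- library with cycloheximide.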

Other observations

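AZIN1 encodes few arginines. Its 448 codons hold 4 arginine codons (0.893%), beside a median of 5.63% over 11698 listed genes, of which 0.18% had a smaller share. ODC1, which it resembles, holds 18 of 461 (3.90%). OAZ1 lies on the other side, with 20 arginine codons of 228 (8.77%) and 91.2% of genes below it. SAT1 holds 7 methionine codons of 171 (4.09%, with 95.8% of genes below it) and AMD1 12 of 334 (3.59%), beside a median of 2.14%. Leucine shares of the members ran from 7.16% in ODC1 to 11.6% in OAZ2, around a median of 9.74%. No relation between these shares and the ratios was tested.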
